A study of Mus musculus with 12 samples.

Results

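The nuclear-encoded genes of the mitochondrial respiratory chain and ATP synthase were followed in RNA from the mouse ventral hippocampus. Members were taken by symbol (Nduf, Uqcr, Cox4 to Cox8 and Atp5 genes, with Sdha, Sdhb, Sdhc, Sdhd and Cycs) and had to reach 10 counts in at least 3 of the 12 libraries once the transcripts of a symbol were summed. Of 85 matching symbols among 23183, 83 met this minimum, and all 83 were tested. Cox7b2, with at most 8 counts in any library, and Cox8c, with 0, did not meet it. The 83 were 35 genes of complex I, 4 of complex II, 8 of complex III, 18 of complex IV, 15 of complex V, cytochrome c and 2 genes named Atp5s and Atp5sl that encode no subunit of the synthase. Ndufa4 and Ndufa4l2 were counted with complex IV, where the Ndufa4 protein sits. The symbols matched nothing encoded by mitochondrial DNA, so the mitochondrial subunits of these complexes are not analysed here.

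The respiratory chain passes electrons from NADH (through complex I) and succinate (through complex II) to ubiquinone, then through complex III, cytochrome c and complex IV to oxygen. Complexes I, III and IV pump protons as they do so, and complex V, the ATP synthase, uses the resulting gradient to make ATP. Neurons draw most of their ATP from this pathway. The subunits of complex II are all nuclear-encoded, while the other complexes also need subunits made inside the mitochondrion.

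All 12 mice were male wild-type C57BL/6J animals, described as naive and 8 weeks old on arrival, with 3 in each of 4 groups. SES mice were stress-susceptible, ran on a wheel and were labelled effective responders (mice 9, 10 and 12). SER mice were stress-susceptible runners labelled ineffective responders (mice 6, 19 and 20). SS mice were stress-susceptible and sedentary (mice 18, 19 and 21), and C mice were neither restrained nor given a wheel (mice 2, 8 and 12). SES, SER and SS mice had all been restrained for 2 hours a day on 14 days. The titles give 14 days of running and the protocol 4 weeks. Values of mice are listed in these orders throughout, and a mouse number names an animal within its group only.

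Libraries held 9323607 to 15707516 counts, of which the 83 genes took 1.30% to 1.73%. All 12 listed pyramidal and granule cell markers and all 5 ventral hippocampal markers were detected. Some libraries stood apart within their group. SS mouse 18 had 505 CPM (counts scaled to library size) of Malat1, a nuclear noncoding RNA, against 3761 and 5257 CPM in SS mice 19 and 21. SES mice had 1068, 1381 and 1974 CPM of Malat1, SER mice 1398, 1472 and 988 CPM and C mice 505.5, 262.8 and 489.2 CPM. Choroid plexus RNA was uneven as well, with Ttr between 2.78 CPM (C mouse 8) and 5095 CPM (SS mouse 18). Mean log2 CPM of 6 thalamic markers, minus the mean of C mice, was 1.26 in C mouse 2 and 1.10 in SS mouse 18. In the other libraries it ran from -1.05 to -0.35. The same measure over the 5 ventral hippocampal markers was lowest in SES mouse 10, at -1.31, and SS mouse 18, at -0.83. The counts and medians of SS mice are therefore also given without mouse 18, after the results by complex and beside each list, and the named genes are then counted. In Malat1, however, mouse 18 was near the C mice, and SS mice 19 and 21 were above all other libraries. Mouse 18 also had the SS level over the 83 genes nearest to C mice, at -0.20 by the same measure, against -0.51 and -0.40. Leaving it out is an alternative and not a correction. Because this is bulk tissue, fewer cells of a type and less RNA per cell cannot be told apart.

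Levels between genes were compared per transcript length, over all 12 mice and without the 6 low isoforms of complex IV described further on. Complex IV had the highest median, at 368.0 CPM per kilobase, from 193.8 for Cox5a to 1049 for Cox4i1. Complex V followed at 284.1, from 54.8 for Atp5g1, of the c-ring, to 641.0 for Atp5b, the catalytic beta subunit. The medians were 168.6 for complex III, with Uqcrq lowest and Uqcrh highest, 124.1 for complex I, with Ndufs5 lowest and Ndufb9 highest, and 102.2 for complex II, with Sdhc lowest and Sdha highest. Cycs stood at 71.4, and Atp5s and Atp5sl at 10.8 and 18.0. These levels use 1 length a gene and are a description.

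The first comparison set sedentary stressed mice against unstressed mice. In SS mice 38 of the 83 genes fell relative to C mice and none rose (edgeR quasi-likelihood test, adjusted p under 0.05 over 14541 genes). Among all genes tested, 4.63% were called lower. The fall reached every complex, with 15 of 35 genes of complex I, 1 of 4 of complex II, 5 of 8 of complex III, 8 of 18 of complex IV and 7 of 15 of complex V, besides cytochrome c and Atp5s. Fold changes were modest. The median log2 fold change over the 83 was -0.37, against 0.02 over all genes, and 82 of the 83 estimates were below 0. The 3 SS mice all lay below the 3 C mice for 55 members, a pattern that 14.2% of all genes showed. By complex the medians were -0.34 for I, -0.26 for II, -0.36 for III, -0.45 for IV and -0.35 for V, and differences between complexes were not tested. None of the 6 low isoforms of complex IV was called, and 8 of its other 12 genes fell, with a median of -0.42.

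**Figure D1:**
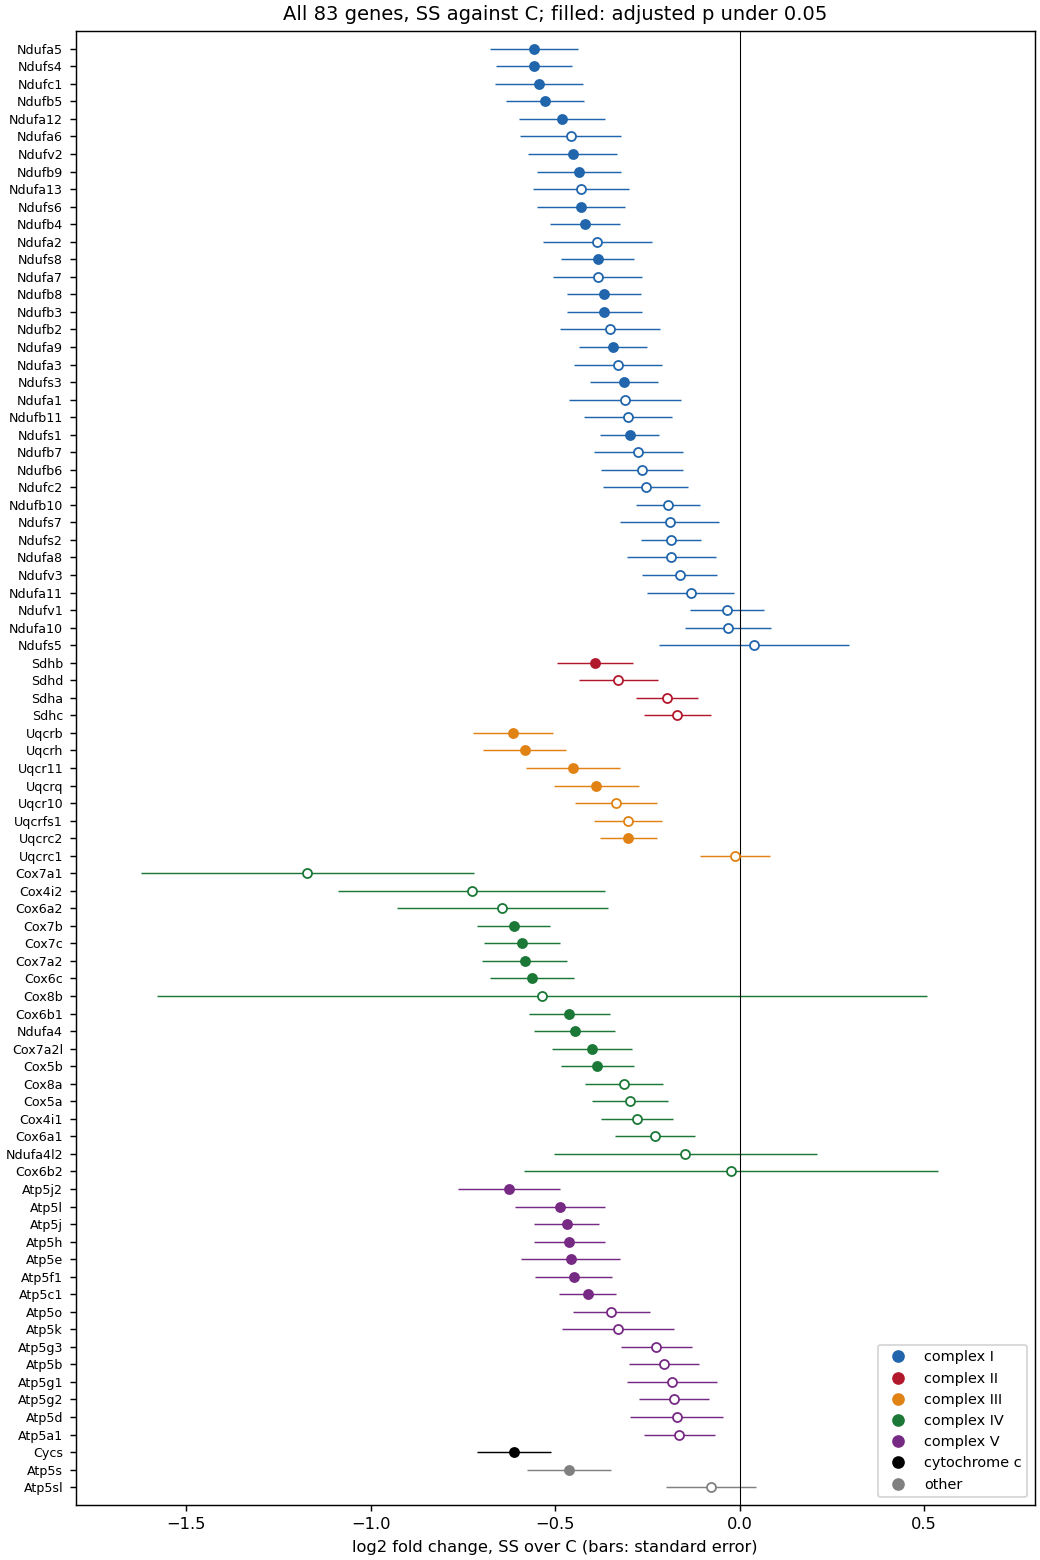
Log2 fold change of SS over C mice for each of the 83 genes, grouped by complex from I at the top to the 2 other genes at the bottom. Points are edgeR estimates, bars are standard errors and filled points have an adjusted p under 0.05. The 38 filled points all lie left of 0, and Ndufs5 is the 1 gene with an estimate above 0.

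Complex I takes electrons from NADH. Its genes with the smallest p were all for accessory subunits, which surround the catalytic core. Ndufs4 (chromosome 13, 114287795 to 114388094), whose loss causes Leigh syndrome in humans and a like disease in mice, was at 85.5, 79.3 and 75.3 CPM in SES mice, 81.4, 98.4 and 86.2 CPM in SER mice, 84.3, 67.4 and 70.8 CPM in SS mice and 105, 111 and 112 CPM in C mice. Every SS mouse lay below every C mouse, with a log2 change of -0.56 ± 0.10 (adjusted p = 0.0223). Ndufb5 (chromosome 3, 32737057 to 32751559), of the membrane arm, was at 104, 89.9 and 97.6 CPM in SS mice, against 147, 143 and 130.2 CPM in C mice, a log2 change of -0.53 ± 0.11 (adjusted p = 0.0223). Ndufa5 (chromosome 6, 24518662 to 24527690), of the matrix arm, was at 98.5, 88.4 and 78.3 CPM in SES mice, 78.4, 103 and 80.6 CPM in SER mice, 89.3, 81.6 and 89.3 CPM in SS mice and 119.6, 124 and 139.7 CPM in C mice. The C mice stood above all 9 stressed mice, and SS differed from C by a log2 change of -0.56 ± 0.12 (adjusted p = 0.0239). The largest p in this complex was that of Ndufs5, an accessory subunit on the intermembrane side, which was at 21.1, 14 and 18.8 CPM in SS mice, against 22.5, 18.3 and 11.6 CPM in C mice. Its log2 change was 0.04 ± 0.26 (adjusted p = 0.942), and it was the lowest of the complex I genes in level per length, at 28.3 CPM per kilobase over the 12 mice.

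The core subunits of complex I carry out electron transfer. All 7 nuclear-encoded ones had estimates below 0, of uneven size, and 4 fell (Ndufs1, Ndufs3, Ndufs8 and Ndufv2), with a median of -0.30 over the 7. Of the 28 accessory subunits 11 fell, with a median of -0.36. Ndufs1, the largest iron-sulfur subunit, was at 148, 134 and 130.4 CPM in SS mice, against 173, 174 and 159 CPM in C mice, a log2 change of -0.30 ± 0.08 (adjusted p = 0.0363). Ndufv1, the flavoprotein that receives electrons from NADH, was by contrast at 186, 172 and 175 CPM in SS mice, against 177, 189 and 179 CPM in C mice, and its groups overlapped, with a log2 change of -0.03 ± 0.10 (adjusted p = 0.865). It was chosen for mention after its values were seen.

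Complex II, succinate dehydrogenase, also works in the citric acid cycle. Sdhb (chromosome 4, 140961271 to 140979198), its iron-sulfur subunit, was at 157, 147 and 155 CPM in SES mice, 138, 184 and 154 CPM in SER mice, 145, 131 and 129 CPM in SS mice and 166, 188 and 177 CPM in C mice. It fell in SS mice, at a log2 change of -0.39 ± 0.10 (adjusted p = 0.0349), with no overlap between SS and C mice. Sdhd, a membrane anchor, was at 92.3, 70.3 and 67.8 CPM in SS mice, against 96, 98.1 and 95 CPM in C mice, which gave a log2 change of -0.33 ± 0.11 (adjusted p = 0.0677). Sdha, the flavoprotein that oxidises succinate, averaged 427 ± 31.4 CPM in SS mice and 489 ± 28 CPM in C mice (SD, n = 3 each), with a log2 change of -0.20 ± 0.08 (adjusted p = 0.141). For Sdhc, the other anchor, SS mouse 18 lay within the C range, and the change was -0.17 ± 0.09 (adjusted p = 0.244).

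Complex III carries electrons from ubiquinol to cytochrome c. Uqcrb (chromosome 13, 66900576 to 66905350), a small subunit near the ubiquinone site, was at 101, 86.5 and 75.6 CPM in SES mice, 81.2, 90.4 and 86.5 CPM in SER mice, 91.7, 75.8 and 81.3 CPM in SS mice and 124, 124 and 133 CPM in C mice. The highest stressed mouse, SES mouse 9, stayed below the lowest C mouse, and SS differed from C by a log2 change of -0.61 ± 0.11 (adjusted p = 0.0223). Uqcrh (chromosome 4, 116066965 to 116075070), the hinge protein at the docking face for cytochrome c, was at 189, 154 and 181 CPM in SS mice, against 234, 286 and 265 CPM in C mice, a log2 change of -0.58 ± 0.11 (adjusted p = 0.0223). The 2 core proteins of the complex, which do not transfer electrons, gave unlike estimates. Uqcrc2 fell to 216 ± 9.73 CPM in SS mice, against 266 ± 12.2 CPM in C mice (SD, n = 3 each), at a log2 change of -0.30 ± 0.08 (adjusted p = 0.0322). Uqcrc1 was at 286, 248 and 244 CPM in SS mice, against 249, 260.5 and 276 CPM in C mice, with a log2 change of -0.01 ± 0.09 (adjusted p = 0.948) and overlapping groups, and whether the 2 changes differ was not tested. Cytochrome c itself, Cycs (chromosome 6, 50562563 to 50566569), shuttles electrons to complex IV and starts the apoptosome when released. It was at 229, 213 and 207 CPM in SES mice, 209, 219.9 and 224 CPM in SER mice, 208, 157 and 179 CPM in SS mice and 256, 289 and 285 CPM in C mice, and the C mice were above all others. SS differed from C by a log2 change of -0.61 ± 0.10 (adjusted p = 0.0223).

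Complex IV, cytochrome c oxidase, hands the electrons to oxygen. Cox7b (chromosome X, 106015700 to 106022450), a small membrane subunit, was at 204, 193 and 189 CPM in SES mice, 177, 210.0 and 204 CPM in SER mice, 189, 149 and 174 CPM in SS mice and 248, 265 and 269.5 CPM in C mice. SS mice 19 and 21 were the lowest of the 12, and SS fell below C, at a log2 change of -0.61 ± 0.10 (adjusted p = 0.0223). Cox7c (chromosome 13, 86044798 to 86046795), another small membrane subunit, was at 126, 119.9 and 143 CPM in SS mice, against 179.6, 189 and 217 CPM in C mice, a log2 change of -0.59 ± 0.10 (adjusted p = 0.0223). Cox7a2 (chromosome 9, 79755241 to 79771422), the form of subunit 7a found in most tissues, was at 181, 139 and 151 CPM in SS mice, against 203, 254 and 249 CPM in C mice with a log2 change of -0.58 ± 0.11 (adjusted p = 0.0223). Ndufa4, placed with complex I by its name but a subunit of complex IV, fell, at a log2 change of -0.45 ± 0.11 (adjusted p = 0.0285). Cox7a2l fell, at a log2 change of -0.40 ± 0.11 (adjusted p = 0.0373). Cox4i1, the most abundant transcript per length of the set at 1049 CPM per kilobase, had non-overlapping groups but was not called, at -0.28 ± 0.10 (adjusted p = 0.0817).

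Complex V couples proton flow to ATP synthesis. Atp5j (chromosome 16, 84827871 to 84835857), coupling factor 6 of the outer stalk, was at 166, 156 and 151 CPM in SES mice, 139.6, 159 and 154 CPM in SER mice, 154, 129 and 147 CPM in SS mice and 194, 197 and 206 CPM in C mice. All 9 stressed mice lay below the C mice, and the log2 change of SS was -0.47 ± 0.09 (adjusted p = 0.0223). Atp5c1 (chromosome 2, 10056030 to 10080510), the rotating gamma subunit, was at 220.1, 193 and 199 CPM in SS mice, against 272, 271 and 271 CPM in C mice without overlap. Its log2 change was -0.41 ± 0.08 (adjusted p = 0.0223). Atp5h (chromosome 11, 115415691 to 115419919), subunit d of the outer stalk, was at 263, 226 and 250.2 CPM in SS mice, against 318, 347 and 352 CPM in C mice, a log2 change of -0.46 ± 0.10 (adjusted p = 0.0229). In the F1 head and central stalk 2 of 5 genes fell (median -0.20), against 5 of 10 in the Fo and outer stalk (median -0.40), a difference that was not tested. A set of 3 genes encodes the same mature c-ring subunit, and none was called, with -0.18 ± 0.12 (adjusted p = 0.356) for Atp5g1, -0.18 ± 0.10 (adjusted p = 0.244) for Atp5g2 and -0.23 ± 0.10 (adjusted p = 0.144) for Atp5g3. Atp5d, the F1 delta subunit, had the largest p of the complex, at -0.17 ± 0.13 (adjusted p = 0.406). Atp5s, whose name recalls the synthase though its product is not a subunit, was at 14.7, 13.6 and 14.2 CPM in SS mice, against 19.1, 19.2 and 20.3 CPM in C mice and fell, at a log2 change of -0.46 ± 0.11 (adjusted p = 0.0289).

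**Figure D2:**
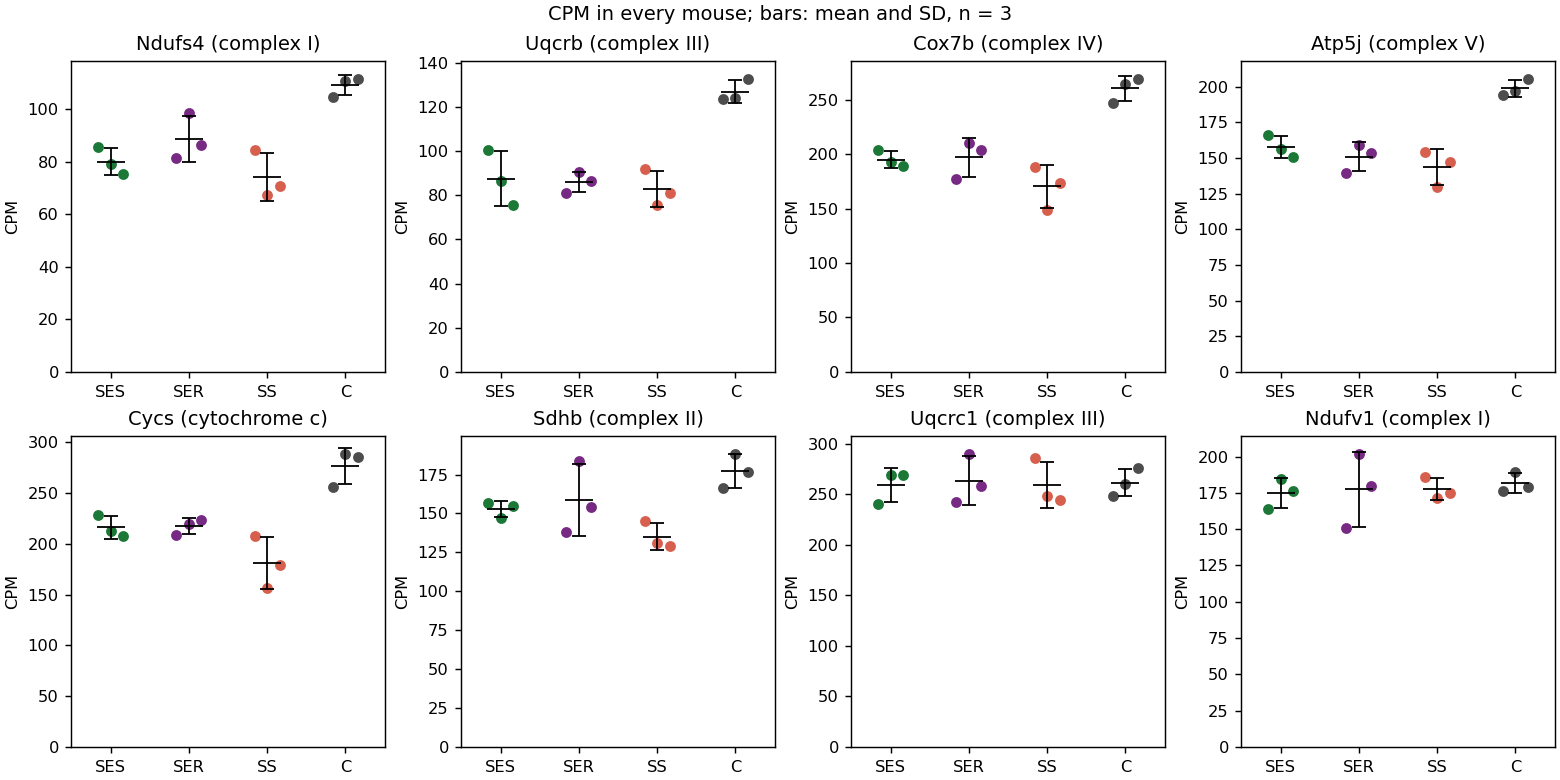
CPM of 8 genes in every mouse, with groups from left to right SES, SER, SS and C. Points are mice, long dashes are group means and bars are the SD (n = 3). For Ndufs4, Uqcrb, Cox7b, Atp5j and Cycs the C mice lie above all other mice, while for Uqcrc1 and Ndufv1 the 4 groups overlap.

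The calls depended on which libraries were kept. Without SS mouse 18 the count of members called lower was 61, which held all 38, when 12.2% of all genes were called lower. By complex it was then 26 for I, 4 for II, 7 for III, 11 for IV and 11 for V, with medians of -0.45, -0.37, -0.44, -0.56 and -0.44. The values of complex IV include its 6 low isoforms. Of 59 genes followed singly in this comparison 37 were called with all mice and all 37 were also called without mouse 18, while 7 more were called only without it (Atp5g1, Atp5g3, Cox4i1, Cox8a, Sdha, Sdhc and Sdhd). Ndufs5 and Ndufa4l2 changed sign and were called in neither fit. The core subunits of complex I then had a median of -0.36 and the accessory ones -0.46, the F1 head and central stalk of complex V -0.31 and the Fo and outer stalk -0.48. C mouse 2 and SS mouse 18 had the most choroid plexus RNA and the highest thalamic marker levels of their groups. Without both, the count of members called lower was 64 (11.9% of all genes) and the median was -0.51. Without SS mouse 19, SS mouse 21 or C mouse 8 the count was 0, and in each of these cases 0 of all genes tested were called. Without C mouse 12 the count was 2, when 0.264% of all genes were called lower. The medians stayed between -0.45 and -0.30 when any 1 of the 12 libraries was left out. A fit of the SS and C libraries alone called 0 members and 0 of all genes, while DESeq2's Wald test called 48 of the members and 7.47% of all genes lower.

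The level of each complex was also followed mouse by mouse as the mean, over its genes, of log2 CPM minus the mean of the C mice. For complex I these levels were -0.24, -0.29 and -0.32 in SES mice, -0.38, -0.11 and -0.30 in SER mice, -0.16, -0.47 and -0.35 in SS mice and -0.07, 0.03 and 0.04 in C mice. Complex II stood at -0.18, -0.22 and -0.22 in SES mice, -0.24, -0.09 and -0.20 in SER mice, -0.10, -0.35 and -0.38 in SS mice and -0.02, 0.04 and -0.02 in C mice. For complex III the values were -0.24, -0.33 and -0.34 in SES mice, -0.40, -0.16 and -0.33 in SER mice, -0.25, -0.46 and -0.40 in SS mice and -0.11, 0.03 and 0.08 in C mice. In each of these complexes all 9 stressed mice lay below the 3 C mice. Complex IV gave -0.39, -0.20 and -0.31 in SES mice, -0.58, -0.25 and -0.56 in SER mice, -0.26, -0.68 and -0.54 in SS mice and -0.04, -0.04 and 0.08 in C mice, and complex V gave -0.28, -0.31 and -0.35 in SES mice, -0.41, -0.13 and -0.34 in SER mice, -0.19, -0.46 and -0.39 in SS mice and -0.08, 0.03 and 0.06 in C mice. Without the 6 low isoforms described further on, the other 12 genes of complex IV were at -0.28, -0.36 and -0.37 in SES mice. They were at -0.40, -0.13 and -0.32 in SER, -0.29, -0.56 and -0.44 in SS and -0.11, 0.02 and 0.09 in C mice. SS mouse 18 and SER mouse 19 were the nearest to the C mice in complexes I, II and V, and SS mouse 19 was the lowest in complexes I, III, IV and V. SES mice were the closest to each other, with an SD of 0.03 over the 3 mice for all 83 genes, against 0.14 in SER, 0.16 in SS and 0.06 in C mice.

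**Figure D3:**
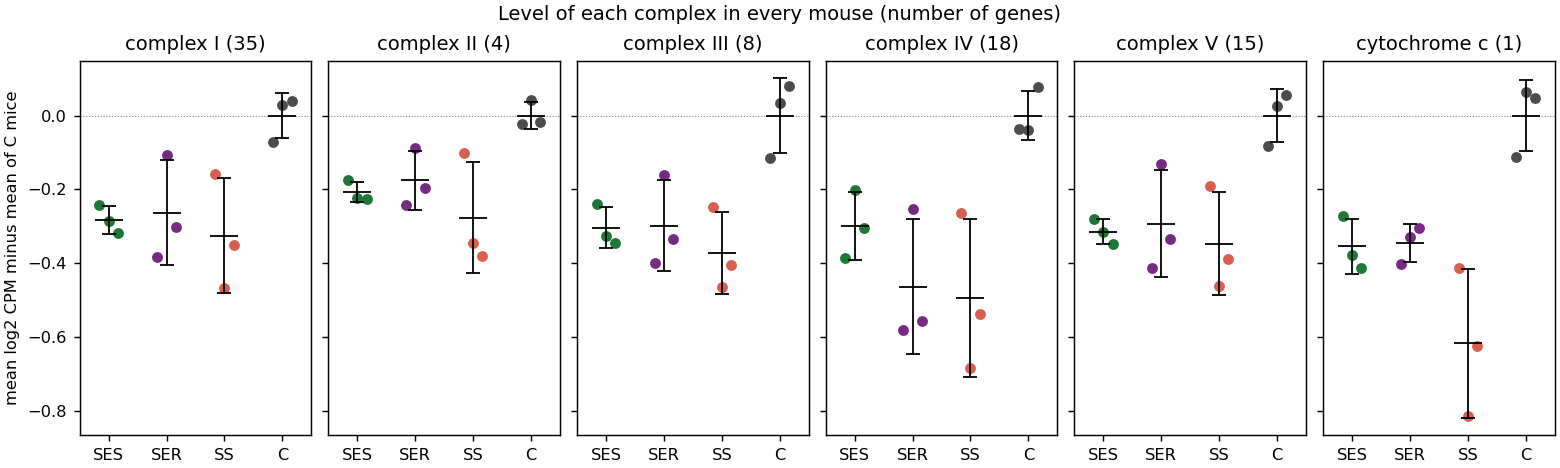
Level of complexes I to V and cytochrome c in every mouse, as mean log2 CPM minus the mean of C mice, with groups from left to right SES, SER, SS and C. Points are mice, long dashes are group means and bars are the SD (n = 3). All 9 stressed mice lie below the C mice in each panel, and the 3 stressed groups overlap in the panels of complexes I to V. The panel of complex IV averages all 18 genes, with the 6 low isoforms.

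Wheel runners were next compared with sedentary stressed mice. In SES against SS mice edgeR called none of the 83 genes, and 0.0% of all genes tested. DESeq2's Wald test also called 0, of 75 members that received an adjusted p. At an unadjusted p under 0.05 there were 4 members, while 9.01% of all genes passed that limit. The median log2 change was 0.08 (all genes -0.01), with 61 of 83 estimates above 0. Cycs was at 229, 213 and 207 CPM in SES mice, against 208, 157 and 179 CPM in SS mice, a log2 change of 0.26 ± 0.10 (adjusted p = 0.524), and SES mouse 12 and SS mouse 18 had nearly the same level. Ndufb4 (chromosome 16, 37647602 to 37654368), an accessory subunit of the membrane arm of complex I, was at 139, 115 and 122 CPM in SES mice, against 99.7, 99.8 and 109.7 CPM in SS mice. Its groups did not overlap, and its change was 0.28 ± 0.10 (adjusted p = 0.524). The median change by complex was 0.04 for I, 0.05 for II, 0.07 for III, 0.14 for IV and 0.02 for V. Over the 12 genes of complex IV without its low isoforms it was 0.10.

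In SER against SS mice edgeR again called none of the members, and 0.0481% of all genes. DESeq2's Wald test called 0 of 83 as well. Unadjusted p-values under 0.05 were found for 11 members (18.2% of all genes), and the median log2 change was 0.06 with 56 estimates above 0. Ndufb4 was at 120.2, 133 and 131 CPM in SER mice, against 99.7, 99.8 and 109.7 CPM in SS mice, without overlap and with a log2 change of 0.32 ± 0.10 (adjusted p = 0.131). Ndufb8, another accessory subunit of the membrane arm, was at 153, 179.6 and 161 CPM in SER mice, against 148, 124 and 133 CPM in SS mice, a log2 change of 0.29 ± 0.10 (adjusted p = 0.168). Both comparisons turned on SS mouse 18. Without it 4 members rose in SES mice (Cycs, Ndufa12, Ndufc2 and Ndufv2), 13 rose in SER mice and none fell. Of all genes 8.69% and 16.5% were then called in either direction. Those called lower were 5.43% and 9.0% of all genes, and the rest of these calls were rises. The 13 included Cycs, Ndufs4, Cox4i1 and Cox7a2l. Without SS mouse 18 the median change of complex IV, with its 6 low isoforms, was 0.19 in SES and 0.14 in SER mice. With all mice it was 0.04 in SER mice, and 0.18 over the 12 genes other than the low isoforms. Differences between complexes were not tested.

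Runners were then set against unstressed mice. The C mice are shared by these comparisons and by that of SS mice, so their results are not independent of each other. In SES against C mice edgeR called none of the 83 genes, and 0.179% of all genes, whereas 55 members had an unadjusted p under 0.05 (16.2% of all genes). DESeq2's Wald test called 25 of 77 members with an adjusted p, all lower, and 2.04% of all genes lower. The median log2 change was -0.29 (all genes 0.00), 82 estimates were below 0, and the groups did not overlap for 63 members, all lower in SES mice (13.2% of all genes). Uqcrb came nearest to a call, at -0.53 ± 0.11 (adjusted p = 0.0875), followed by Ndufa5 at -0.53 ± 0.12 (adjusted p = 0.109). Cox6b2 was the 1 member with an estimate above 0, at 0.47 ± 0.54 (adjusted p = 0.697). Without SS mouse 18, whose library enters the common estimate of spread, 21 members and 1.37% of all genes were called lower.

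In SER against C mice 4 of the 83 genes fell and none rose, and 0.337% of all genes were called lower. The 4 were Uqcrb at -0.56 ± 0.11 (adjusted p = 0.0358), Ndufc1 at -0.55 ± 0.12 (adjusted p = 0.0447), Ndufa5 at -0.55 ± 0.12 (adjusted p = 0.0451) and Atp5j at -0.40 ± 0.09 (adjusted p = 0.0469). Ndufc1 (chromosome 3, 51405479 to 51408955), a small accessory subunit of complex I, was at 46.4, 42 and 47.3 CPM in SES mice, 38.7, 49.2 and 39.5 CPM in SER mice, 43.7, 37.9 and 46.7 CPM in SS mice and 59.5, 59.1 and 68.5 CPM in C mice. No stressed mouse reached the C range for this gene. All 4 were also among the 38 called in SS mice. The median over the 83 was -0.28 (all genes -0.01), and for 41 members the SER mice all lay below the C mice (12.7% of all genes). The count of 4 was not stable. It was 0 without any 1 of the C mice or without SER mouse 6 or 20, 1 without any 1 of the SES mice or without SS mouse 19 or 21 (0.0745% to 0.211% of all genes), 8 without SER mouse 19 (0.419%) and 19 without SS mouse 18 (2.07% of all genes). DESeq2's Wald test called 18 members and 2.14% of all genes lower.

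The 2 running groups were compared directly. In SES against SER mice edgeR called none of the 83 genes, and 0.0275% of all genes. No member had an unadjusted p under 0.05 (3.72% of all genes), DESeq2's Wald test called 0, and the median log2 change was -0.02. The members with the smallest p were both forms of complex IV subunit 4. Cox4i1 was at 712, 745 and 765 CPM in SES mice, against 765, 926 and 839 CPM in SER mice, and its rarer form Cox4i2, linked to lung and to the response to oxygen, was at 1.26, 1.54 and 1.28 CPM in SES mice, against 0.552, 0.859 and 1.09 CPM in SER mice. The log2 changes were -0.19 ± 0.10 for Cox4i1 and 0.72 ± 0.37 for Cox4i2 (adjusted p = 0.9997 for both). In a test of any difference among the 4 groups edgeR called no member and 0.206% of all genes, with 55 members at an unadjusted p under 0.05 (23.8% of all genes) and a smallest adjusted p of 0.0593. The matching DESeq2 test called 45 members and 13.0% of all genes.

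Several subunits of complex IV have a second gene that is used mainly in heart and skeletal muscle (Cox6a2, Cox7a1 and Cox8b), testis (Cox6b2) or lung (Cox4i2), and Ndufa4l2 is the hypoxia-inducible counterpart of Ndufa4. All 6 were low here. Cox4i1 averaged 936.0 CPM per kilobase in SS mice and 1135.2 in C mice, where Cox4i2 averaged 1.40 in SS mice and 2.31 in C mice. None of the 6 was called in any comparison. Cox7a1 was at 0.809, 0.471 and 1.36 CPM in SS mice, against 1.96, 1.86 and 2.15 CPM in C mice, with non-overlapping groups and a log2 change of -1.17 ± 0.45 (adjusted p = 0.109). Cox6a2 was at 2.53, 4.94 and 3.91 CPM in SS mice, against 5.05, 7.64 and 5.15 CPM in C mice, a log2 change of -0.64 ± 0.29 (adjusted p = 0.158). Skeletal muscle markers were also low, with Ckm at 0 to 0.143 CPM and Acta1 at 3.39 to 8.08 CPM. Cox8b was at 0.629, 3.15 and 1.05 CPM in SES mice, 0.237, 0.774 and 0.109 CPM in SER mice, 3.24, 0.0784 and 0.255 CPM in SS mice and 3.74, 0.357 and 0.945 CPM in C mice, and its 3 highest libraries, C mouse 2, SS mouse 18 and SES mouse 10, were also the 3 highest in Ttr. Cox8b ran to 47 counts at most and Cox7a1 to 30, so the precision of both is limited by counting.

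**Figure D4:**
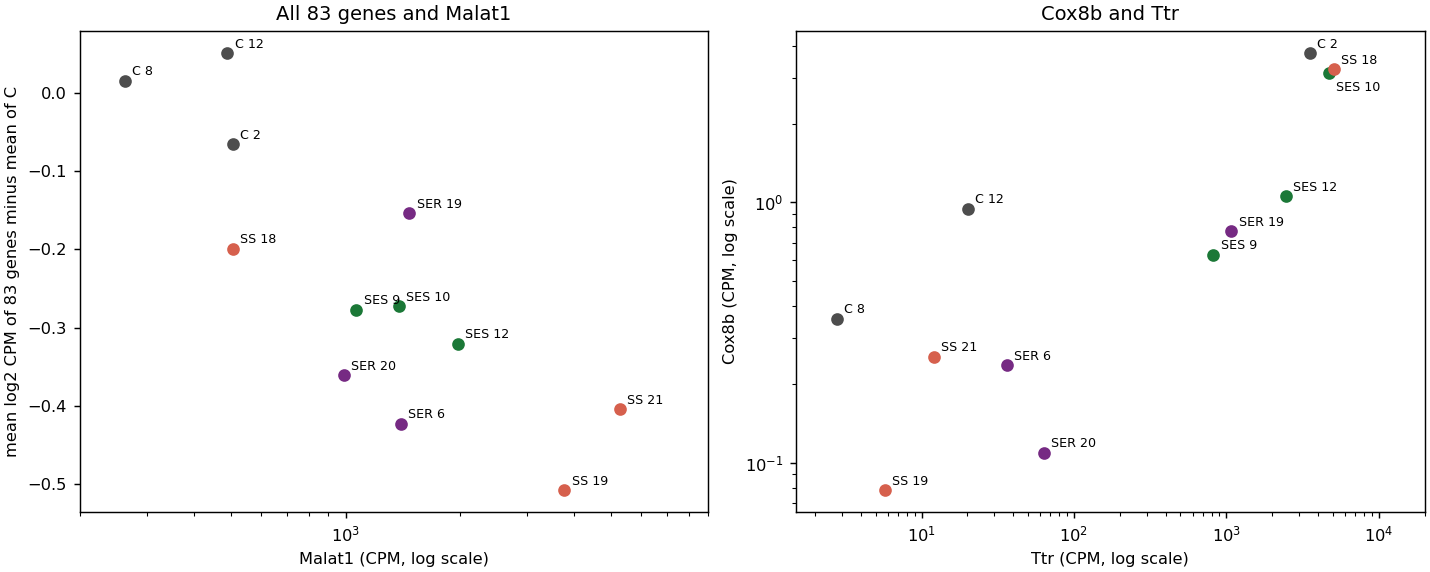
Left, mean log2 CPM of the 83 genes minus the mean of C mice against Malat1 CPM (log scale). Right, Cox8b CPM against Ttr CPM (both log scales). Each point is 1 mouse with its group and number. SS mouse 18 lies beside C mouse 2 in Malat1, at 505 and 505.5 CPM, and SS mice 19 and 21 have both the highest Malat1 and 2 of the 3 lowest member levels.

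RNA composition also differed between libraries. All 6 nuclear noncoding RNAs of a listed set rose in SS against C mice, and their summed level was 982.6 to 11542 CPM in SS mice, against 863.8 to 1352 CPM in C mice. Their mean log2 CPM, minus the mean of C mice, was 1.05, 1.63 and 1.29 in SES mice. It was 0.92, 0.71 and 0.17 in SER mice, -0.21, 2.71 and 2.95 in SS mice and 0.32, -0.29 and -0.03 in C mice. SS mouse 18 thus lay within the C range. Without it the SS median against C mice was 3.16 (2.63 with all mice), with all 6 called higher in both fits. With the Malat1 level as a covariate, 0 members and 0 of all genes were called in SS against C, and the median over the 83 was -0.20. The sum of 7 neuron markers was 5885 to 6662 CPM in SES, 6077 to 6545 CPM in SER, 5778 to 6559 CPM in SS and 6993 to 7322 CPM in C mice, with no marker at 0. Single neuron markers were split against C mice, with 4 estimates below 0 and 3 above in SES mice and in SER mice. In SS mice 5 were below 0 and 2 above. The 12 pyramidal and granule cell markers had median log2 changes against C mice of 0.33 in SES, 0.42 in SER and 0.06 in SS. Of these 12, estimates above 0 numbered 8 in SES, 10 in SER and 6 in SS mice. The sum of 7 astrocyte markers was 6590 to 8134 CPM in SES, 8623 to 9909 CPM in SER, 6053 to 6724 CPM in SS and 6245 to 6995 CPM in C mice. For 7 oligodendrocyte markers the sums were 4478 to 7125 CPM in SES, 4337 to 7799 CPM in SER, 3355 to 10655 CPM in SS and 5783 to 9505 CPM in C mice. The 7 endothelial and mural markers summed to 110.2 to 156 CPM in SES, 112.7 to 125.7 CPM in SER, 124.5 to 161.3 CPM in SS and 142.4 to 223.5 CPM in C mice. All 7 had estimates below 0 in each stressed group against C mice, with medians of -0.43 in SES (0 called), -0.56 in SER (1 called) and -0.32 in SS mice (2 called). Without SS mouse 18 the SS median of these markers was -0.11, with 3 called. For neuron markers the SS median against C mice was then -0.29 (-0.20 with all mice), with 3 called lower (1 with all mice). For astrocyte markers it was -0.06 (-0.03), with 2 called lower (0). For oligodendrocyte markers it was -1.15 (-0.35), with all 7 called lower (1). The pyramidal and granule cell markers then had a median of 0.0017, with 2 called lower and 3 higher. Of all genes 12.2% were then called lower, against 4.63% with all mice. The part of these shifts in cell markers in the members' levels was not tested.

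Transcript length was a further shared property. The 83 members have short transcripts, with a median of 751 bases against 2990 for all genes with a known length, and 76 of them fall in the shortest of 4 equal bins of genes by length (up to 1928 bases). In SS against C mice the median log2 change of that whole bin was -0.13, against 0.13 in the longest bin, and the 76 members had a median of -0.38. Without SS mouse 18 the medians were -0.21 for the shortest bin and -0.46 for its 76 members. Across the 83 members the log2 change had a Pearson correlation of 0.30 with log2 length and of 0.32 with GC content, beside 0.24 and 0.25 across all genes. Genes of 1 library are not independent, so these are descriptions. With length and GC content fitted out library by library, 0 members were called and the median was -0.18, with 0 of all genes called.

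**Figure D5:**
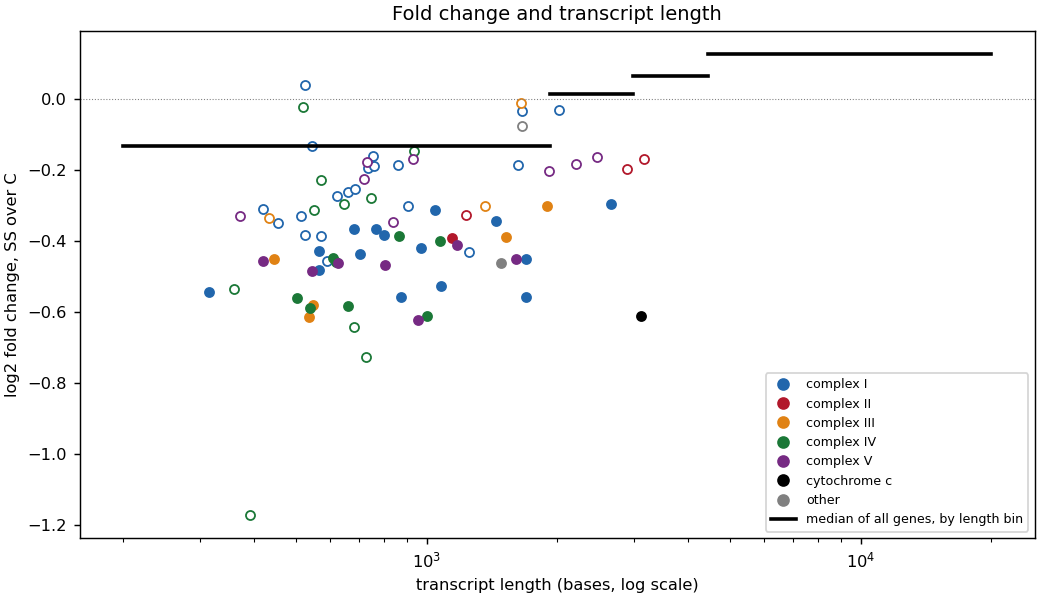
Log2 fold change of SS over C mice against transcript length in bases (log scale) for the 83 genes. Points are coloured by complex, filled where the adjusted p is under 0.05, and black lines are the medians of all genes in each of 4 equal bins of length. In the shortest bin most points lie below the line at -0.13.

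Genes of the respiratory chain often share promoter motifs, among them sites of the factors NRF1, GABP (an ETS factor) and YY1. RefSeq promoter windows (GRCm38.p6, 250 bases before to 50 after a start site) were found for 69 of the 83 members and 11462 of the genes tested, and were searched on both strands. The NRF1 core GCATGCGC, added to the search after the Cycs window had been read, was in 11 of the 69 members (15.9%), against 5.61% of all genes. The longer palindromic NRF1 consensus, which can overlap it, was in 24.6% of members, against 10.7% of all genes. AAGATGGCG, a YY1 motif, was in 11.6%, against 3.22%, and CCGGAAG, an ETS motif, in 23.2%, against 18.1%. CCAATNA was in 21.7%, against 19.3%, and the SP1 motif GGGGCGGGG in 17.4%, against 24.4%. Members with the YY1 motif had a median log2 change of -0.45 in SS against C mice, against -0.35 for members without it. For GCATGCGC the medians were -0.33 with and -0.37 without. When SS mouse 18 was left out they were -0.53 with and -0.45 without the YY1 motif, and -0.31 with and -0.48 without GCATGCGC. A match is a description of letters and shows no binding.

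Sequence before the start site is shown for cytochrome c and for the genes of complexes IV and V with the smallest p in SS against C mice, to set windows with and without these motifs side by side. They are from RefSeq, build GRCm38.p6, written along the strand of the gene from 5′ to 3′, with matches to any of the 6 motifs in capitals. The Cycs stretch (chr6:50566570-50566819, minus strand) has the NRF1 core 60 bases and a CCAATNA match 31 bases before the start. The Atp5j stretch (chr16:84835024-84835123, minus strand) is the part of the window of its second start site that lies clear of annotated UTRs. It holds the YY1 motif 88 bases and the ETS motif 61 bases before that start. The 250 bases before the first Atp5j start site (chr16:84835626-84835875) hold none of the 6 and are not printed. They lie mostly, and the printed Atp5j stretch wholly, within the span given above for the gene. The Cox7b stretch (chrX:106015450-106015699, plus strand) holds none of the 6.
Cycs: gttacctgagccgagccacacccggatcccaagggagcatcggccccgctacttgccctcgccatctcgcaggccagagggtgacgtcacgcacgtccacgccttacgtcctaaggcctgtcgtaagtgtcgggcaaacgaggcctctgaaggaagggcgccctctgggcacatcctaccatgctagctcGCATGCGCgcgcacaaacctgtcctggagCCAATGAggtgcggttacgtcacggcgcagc
Atp5j: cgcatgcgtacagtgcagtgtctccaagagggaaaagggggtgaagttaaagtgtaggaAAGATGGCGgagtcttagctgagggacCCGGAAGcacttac
Cox7b: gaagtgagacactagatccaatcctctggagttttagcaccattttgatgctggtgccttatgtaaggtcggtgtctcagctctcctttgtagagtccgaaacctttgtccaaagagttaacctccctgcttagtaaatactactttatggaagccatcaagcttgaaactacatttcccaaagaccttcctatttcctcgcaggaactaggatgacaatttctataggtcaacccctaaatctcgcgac
These 3 genes had log2 changes of -0.61 ± 0.10, -0.47 ± 0.09 and -0.61 ± 0.10 in SS against C mice. Atp5j lies head to head with Gabpa, which encodes the DNA-binding subunit of GABP, and their exons overlap on opposite strands. Gabpa had a log2 change of -0.01 ± 0.16 (adjusted p = 0.978). Since no source used here states whether counting took strand into account, reads of this pair may not be fully separated.

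Other mitochondrial genes were read in SS against C mice from lists of related functions. Of all genes tested 4.63% were called lower in this comparison and 5.21% higher. Of 7 further subunits or partners outside the naming rule 4 fell, with a median log2 change of -0.38. They included 2010107E04Rik (Atp5mpl in RefSeq) at -0.71 ± 0.12 (adjusted p = 0.0223) and Usmg5 (Atp5md in RefSeq) at -0.67 ± 0.12 (adjusted p = 0.0223), both small subunits of the ATP synthase. Of 46 tested assembly factors 9 fell and none rose (median -0.25), led by Cox20, a chaperone of complex IV assembly, at -0.75 ± 0.15 (adjusted p = 0.0223), and Ndufaf3, of complex I assembly, at -0.38 ± 0.09 (adjusted p = 0.0297). Of 20 genes of pyruvate dehydrogenase and the citric acid cycle 5 fell and none rose. Among them were Mdh1, cytosolic malate dehydrogenase, at -0.53 ± 0.11 (adjusted p = 0.0223) and Sucla2, a succinyl-CoA synthetase subunit, at -0.53 ± 0.11 (adjusted p = 0.0223). Of 30 carriers and import proteins 9 fell and none rose (median -0.24), such as the outer membrane channel gene Vdac3 at -0.44 ± 0.09 (adjusted p = 0.0223) and the import chaperone gene Timm8b at -0.52 ± 0.11 (adjusted p = 0.0223). Without SS mouse 18 the counts that fell were 5 of 7 further subunits (median -0.45), 22 of 46 assembly factors (median -0.35, with 1 that rose), 9 of 20 genes of the citric acid cycle list (median -0.27) and 16 of 30 carriers and import proteins (median -0.30, with 1 that rose). Among the 14541 genes tested with all mice, 1791 then fell and 1969 rose.

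Regulators of mitochondrial gene expression did not move together. Of 24 tested, 3 fell and 2 rose (4.63% and 5.21% of all genes), with a median of -0.07. Tfam, which packages mitochondrial DNA, fell, at a log2 change of -0.39 ± 0.10 (adjusted p = 0.0311), and Polg, the mitochondrial DNA polymerase, rose by 0.55 ± 0.10 (adjusted p = 0.0223). Gabpb2, a partner of Gabpa, rose by 0.88 ± 0.20 (adjusted p = 0.0266). Ppargc1a, the coactivator PGC-1 alpha, was not called, at -0.26 ± 0.11 (adjusted p = 0.136), nor was Nrf1 at 0.16 ± 0.16 (adjusted p = 0.556). Tfam, Ppargc1a and Nrf1 were chosen for mention after their values were seen. Of 77 symbols of mitochondrial ribosomal protein form 12 fell and none rose (median -0.23), among them Mrps18c at -0.54 (adjusted p = 0.0244). Of 100 symbols of cytosolic ribosomal protein form 60 fell and 1 rose (median -0.43), and the 1 that rose, Rps6kb2, is among 10 kinase genes whose symbols match by form only. Those that fell included Rps24 at -0.62 ± 0.11 (adjusted p = 0.0223). Without SS mouse 18, 3 regulators fell and 4 rose (median -0.20), 26 mitochondrial ribosomal protein genes fell (median -0.33), and 75 of the cytosolic list fell and 2 rose (median -0.50). Of the 14541 genes tested with all mice 1791 then fell and 1969 rose. In SER against SS mice the cytosolic list had a median of 0.31 with 0 called, beside 0.06 and 0 called for the respiratory chain genes.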

How the data were processed

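Per the labels' protocols, Trizol RNA (1.3 µg of total RNA a library) was sequenced with the NEBNext Ultra II Directional kit. The authors deposited whole-number estimated counts per RefSeq transcript, not normalized, and rounding changed none. TopHat and mm10 were used, per the submitters' processing notes, while no source used here names the counting program, strand setting or annotation. Reads of pseudogenes, near-identical copies and overlapping genes may therefore be shared. Nothing says more about the mice than their numbers, so p-values measure the spread between these animals as sequenced.

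Counts were summed per symbol, which joined 2 or more transcripts for 15 members. 1 fit of all 12 libraries used edgeR 4.0.16 under R 4.3.3: filterByExpr (minimum count 10, 14541 genes kept), TMM factors of 0.970 to 1.039, the quasi-likelihood F test with 8 residual degrees of freedom, and Benjamini-Hochberg adjustment over all genes, with calls at an adjusted p under 0.05. The ± beside a log2 fold change is a standard error from the F statistic. CPM are counts scaled by TMM library size, and levels per mouse use log2 CPM with a prior count of 2. The biological coefficient of variation was 15.7%. A count of 0 allows up to 3 counts, or 0.189 to 0.327 CPM, counting error only. The fit was tested on simulated data first. Positions, and the lengths and GC content of 83 of 83 members, came from RefSeq and GENCODE M21 by RefSeq identifier, on build mm10 (GRCm38), counted from 1.

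Named members were complex II and Cycs, in complexes I, III, IV and V the 3 smallest and the 1 largest p in SS against C mice, the 2 smallest p in each other comparison, isoform families, and 2 genes of each pathway list. Members and lists were chosen with earlier results of these data known. Alternatives were DESeq2 1.42.0 (its size factors, and its Wald test, or its likelihood ratio test for the 4 groups), other count filters, a fit of 2 groups alone, transcripts as deposited, length and GC content offsets (mgcv 1.9.3), Malat1 as a covariate, and leaving out mice.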

Additional observations from a re-analysis of the deposited data

How the results depend on the processing

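No paired analysis was run, because nothing in the labels pairs mice of different groups. With a prior count of 0.5 the mean level of each complex in SES, SER and SS mice moved by less than the spread between mice. For SS against C mice (38 members called), DESeq2 size factors gave 40 calls (4.8% of all genes called lower), no count filter 40 (3.33%), a CPM of 1 in 3 libraries 42 (4.87%) and DESeq2's Wald test 48 (7.47%). The count was 0 in a fit of the 2 groups alone, with length and GC content offsets, with Malat1 as a covariate and on transcripts as deposited, where 0.0% to 0.0049% of all genes were called lower, and 64 without C mouse 2 and SS mouse 18 (11.9%). Leaving out 1 mouse at a time gave 0 to 61 (0.0% to 12.2%). For SER against C mice (4 called) the count was 18 with DESeq2's Wald test (2.14%), 0 with the offsets, with Malat1 and on transcripts (0.0392% to 0.11%), 20 without the 2 mice named above (1.96%), and 0 to 19 on leaving out 1 mouse. For SES against C mice (0 called) it was 25 with DESeq2's Wald test (2.04%), 6 in a fit of the 2 groups alone (0.237%), 34 without those 2 mice (2.49%) and 0 to 21 on leaving out 1. Without those 2 mice it was also 5 for SES against SS (0 to 4 on leaving out 1), 16 for SER against SS (0 to 13) and 54 for the 4-group test (0 to 54), when 9.71%, 17.5% and 22.8% of all genes were called in either direction. The members called in SES and SER against SS then all rose, while 5.72% and 9.34% of all genes were called lower. The 4-group test gave 45 with DESeq2's likelihood ratio test (13.0%) and 10 without a count filter (1.51%). SES against SER mice gave 0 under every alternative run, and its median log2 change ran from -0.08 to 0.05 on leaving out 1 mouse. The other medians kept their sign, at 0.02 to 0.13 for SES against SS, 0.0093 to 0.16 for SER against SS, -0.35 to -0.25 for SES against C, -0.37 to -0.23 for SER against C and -0.45 to -0.30 for SS against C mice. With the offsets the median log2 change was -0.18 for SS, -0.16 for SES and -0.10 for SER against C mice. With Malat1 it was -0.20 for SS and -0.18 for SES, and without C mouse 2 and SS mouse 18 it was -0.51 for SS. The cause of these shifts was not tested.

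Of 1554 recomputed values of 74 named gene results 1116 kept direction and side of the threshold, 381 kept direction only and lost the call, 30 gained a call and 27 changed sign. All sign changes were in SS against C mice. With Malat1 as a covariate the log2 changes were 0.014 for Sdhc, 0.096 for Uqcrc1, 0.94 for Cox6b2, 0.58 for Cox8b, 0.11 for Atp5g1, 0.033 for Ndufv1, 0.11 for Gabpa and -0.032 for Nrf1. With the offsets they were 0.16 for Cox6b2, 0.015 for Ndufa4, 0.038 for Atp5g3 and 0.079 for Gabpa. Ndufa4l2 was at 0.043 without C mouse 2 and SS mouse 18. On leaving out 1 mouse at a time Ndufs5 ran from -0.18 to 0.25, Uqcrc1 from -0.097 to 0.029, Cox6b2 from -0.92 to 0.34, Cox8b from -3.24 to 0.80, Ndufa4l2 from -0.30 to 0.044 and Gabpa from -0.092 to 0.046. Counting limits Cox8b, Cox7a1, Cox4i2 and Ndufa4l2, none of which passed 47 counts in any library.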

Other observations

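Against the direction of the respiratory chain genes, Idh2, the mitochondrial isocitrate dehydrogenase that makes NADPH, stood higher in stressed than in unstressed mice, running or not. It was at 75.3, 79.8 and 70.7 CPM in SES mice, 80.9, 78.8 and 65.1 CPM in SER mice, 70.5, 54.4 and 54.6 CPM in SS mice and 50.9, 42.7 and 48.1 CPM in C mice. All 6 running mice and every SS mouse lay above the 3 C mice, and SS mouse 18 lay within the range of the runners. Neither running group was called against SS mice for this gene. The log2 change was 0.67 ± 0.12 in SER against C mice (adjusted p = 0.0337) and 0.67 ± 0.12 in SES against C mice (adjusted p = 0.0527). In SS against C mice it was 0.34 ± 0.12 (adjusted p = 0.0916). Idh2 was the 1 gene of 20 in the pyruvate dehydrogenase and citric acid cycle list that rose in SER mice, and it was picked after its values were seen. In SER against C mice it was higher under all 21 alternatives, at 0.61 to 0.80, and called in 14 of them, with adjusted p-values of 0.000127 to 0.110.

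In the same comparison Mdh1, the cytosolic malate dehydrogenase, fell to 592.3, 680.2 and 635.5 CPM in SER mice, against 896.2, 987.7 and 868.1 CPM in C mice, a log2 change of -0.53 ± 0.11 (adjusted p = 0.0368). Mrpl42, a mitochondrial ribosomal protein gene, was at 41.1, 43.7 and 36.8 CPM in SER mice, against 58.1, 68.2 and 58.1 CPM in C mice, and was the 1 of 77 on its list to be called, at -0.60 ± 0.12 (adjusted p = 0.0366). Over all 14541 genes tested 0.853% rose and 0.337% fell in SER against C mice. No gene of the lists of assembly factors, regulators or carriers was called in SES or SER mice against C mice by edgeR.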
